A study of Mus musculus with 128 samples.

Results

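The homeostatic microglia genes are P2ry12, P2ry13, Tmem119, Cx3cr1, Sall1, Siglech, Csf1r, Fcrls and Gpr34, 9 of the 55285 gene symbols in the tables. They were taken by name, as genes that define the resting state of microglia, and were followed in Brain over 4 ages, with the other 7 tissues for contrast. Messenger RNA was sequenced from Aorta, Brain, Heart, Kidney, Liver, Lung, Muscle and Skin at 6, 15, 24 and 30 months, each group of a tissue at 1 age holding 4 libraries. All groups are wild type and carry no treatment. The mice are male and of the strain C57BL/6J, except that the Aorta records give no sex or strain and hold the age in the title alone. The replicate numbers name separate samples, but nothing says which tissues came from the same mouse, and p-values measure the spread between these samples.

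Microglia are the resident macrophages of brain tissue. In the healthy adult brain they hold a resting, surveying state kept up by CSF1 and IL34 acting on CSF1R, by TGF-beta from their surroundings, and by fractalkine from neurons acting on CX3CR1. The 9 genes are used as markers of this state, and in activated microglia of disease models several of them are known to be lowered while genes such as Clec7a, Cst7 and Itgax are raised. In RNA from whole tissue, fewer cells of a type and less RNA per cell cannot be told apart.

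P2ry12 and P2ry13, receptors for ADP that lie next to each other on chromosome 3, and Cx3cr1 included the pairs with the highest correlations over the 16 Brain libraries (P2ry13 with Cx3cr1 and with P2ry12), an order that changed without 30-month replicate 3. Fcrls had the lowest value of any member relative to its group. The 250 bases before the start of these 4 genes are therefore shown, 5′ to 3′ on the strand of the gene, from RefSeq on the build GRCm38.p6. They are chr3:59262986-59263235 (minus strand) for P2ry12, chr3:59210883-59211132 (minus) for P2ry13, chr9:120068297-120068546 (minus) for Cx3cr1 and chr3:87263525-87263774 (minus) for Fcrls. Capitals mark GAGGAA, the core of the site bound by PU.1, a macrophage transcription factor encoded by Spi1.
P2ry12: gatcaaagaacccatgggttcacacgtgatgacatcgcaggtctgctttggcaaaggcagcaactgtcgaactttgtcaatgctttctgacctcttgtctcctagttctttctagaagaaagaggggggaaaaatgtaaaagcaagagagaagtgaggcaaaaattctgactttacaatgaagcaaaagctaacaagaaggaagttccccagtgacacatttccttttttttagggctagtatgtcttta
P2ry13: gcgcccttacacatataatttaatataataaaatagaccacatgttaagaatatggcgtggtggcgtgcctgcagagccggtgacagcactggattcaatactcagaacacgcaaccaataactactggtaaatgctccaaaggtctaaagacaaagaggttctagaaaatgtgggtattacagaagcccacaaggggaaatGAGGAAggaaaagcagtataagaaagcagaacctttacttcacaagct
Cx3cr1: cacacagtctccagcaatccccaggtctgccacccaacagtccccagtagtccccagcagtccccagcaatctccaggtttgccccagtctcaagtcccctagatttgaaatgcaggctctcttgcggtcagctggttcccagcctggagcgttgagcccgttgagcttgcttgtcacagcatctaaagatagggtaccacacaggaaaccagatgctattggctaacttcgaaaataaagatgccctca
Fcrls: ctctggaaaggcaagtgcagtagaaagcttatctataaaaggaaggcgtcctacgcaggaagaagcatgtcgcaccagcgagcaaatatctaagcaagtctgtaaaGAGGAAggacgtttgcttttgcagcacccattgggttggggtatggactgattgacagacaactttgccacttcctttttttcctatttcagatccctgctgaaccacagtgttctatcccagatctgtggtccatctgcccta
GAGGAA was searched on both strands. It was found in the P2ry13 window, starting 48 bases before the start of the gene, and in the Fcrls window, starting 144 bases before it. The windows of 6 of the 9 members were matched by symbol, which adds Sall1 and Siglech, and 2 of the 6 held the letters, against 25.9% of the 27025 genes with a window.

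Brain libraries held 10094704 to 35986404 reads, and those of 6 months 10094704 to 15745945. Libraries of 25973355 reads or more were found at 15, 24 and 30 months only, among them 30-month replicates 3 and 4. Markers of the labelled tissue were present: every gene of the lists for neurons, astrocytes, oligodendrocytes and their precursors had reads, and no gene of any list was at 0 in all 16 libraries. The library of 30 months, replicate 3, stood apart. It had the lowest median rank correlation with the other Brain libraries, 0.9877 against 0.9902 to 0.9938. It had the lowest value of the 4 libraries of its age for 9 of 9 members, where 30.2% of all genes tested had theirs there, and the lowest of all 16 Brain libraries for 6 of 9 members, against 12.9% of genes. The neutrophil list (8 genes) summed to 49.0 RPM in it (recovered reads scaled by the library total), against 11.9 to 15.4 in the other 30-month libraries and 6.39 to 22.2 at the younger ages. S100a9, a neutrophil calcium-binding protein, stood at 218 normalised reads there against 12.7 to 45.5 in the other 3, and its highest value at a younger age was 86.6. The oligodendrocyte list was lower in it, at 6768 RPM against 7566 to 8127, a level within the range of the younger libraries. The part of these features in the member values was not tested, so member results at 30 months in Brain are given with and without that library. Of the genes of other lists named below as called at 30 months, Nt5e alone lost its call without it.

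Levels can be set against each other between genes only per length. On RPKM, computed from recovered reads with exon lengths of GENCODE M21, the mean over the 16 Brain libraries ran from 3.78 ± 0.42 (SD) for Siglech to 14.3 ± 0.62 for Csf1r. The order was Csf1r, P2ry12 (14.1 ± 1.73), Cx3cr1 (9.33 ± 1.22), Tmem119 (8.92 ± 1.51), Fcrls (7.72 ± 1.35), Gpr34 (5.54 ± 0.74), Sall1 (5.13 ± 0.46), P2ry13 (4.48 ± 1.0) and Siglech. The ranges of each pair of neighbours in this order overlapped. Csf1r was above P2ry12 in 8 of the 16 libraries, and Cx3cr1 above Tmem119 in 10, so the order within these pairs is not settled by the spread. P2ry12 was above Cx3cr1 in 16 of 16.

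In Brain at 30 against 6 months none of the 9 members passed the test, in limma-trend on log2(normalised reads + 1) with Benjamini-Hochberg adjustment over 16190 genes and a threshold of 0.05. In the same comparison 1215 genes, 7.5% of those tested, passed, with 4.18% lower and 3.32% higher. The libraries of 6 and 30 months overlapped for 9 of 9 members, while 7% of genes lay wholly lower at 30 months and 5.97% wholly higher. By unadjusted p under 0.05 there were 3 members, Cx3cr1 and Sall1 higher and Fcrls lower. edgeR and DESeq2 on the recovered reads called 0 members and limma-voom 1, Cx3cr1. The median log2 fold change of the members was 0.11, and that of all genes 0.00. Without 30-month replicate 3 the median was 0.20, and 2 of 9 members rose, P2ry13 and Cx3cr1, where 2.41% of genes rose and 5.03% passed in either direction. That library was singled out by its low member values, so leaving it out raised every member. The 2 calls are therefore not independent of that choice. At 15 and 24 months 0 of 9 members passed as well, in limma-trend, edgeR, DESeq2 and limma-voom, against 0.0247% and 0.667% of genes. At an unadjusted p under 0.05 there was 1 member at 15 months and there were 2 at 24 months. At 15 months all 9 members overlapped with 6 months, against 1.86% of genes wholly lower and 2.25% wholly higher. The comparisons with 6 months share those 4 control libraries. Between 15 and 24 months 0 of 9 members passed in limma, against 0.673% of genes, and 1 had an unadjusted p under 0.05, P2ry13 (0.38 ± 0.18, limma adjusted p = 0.382). P2ry13 and P2ry12 (0.20 ± 0.11, limma adjusted p = 0.452) were higher in all 4 libraries of 24 months, as were 4.1% of genes, and Fcrls was lower in all 4 (-0.19 ± 0.18, limma adjusted p = 0.711), as were 4.22%.

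**Figure D1:**
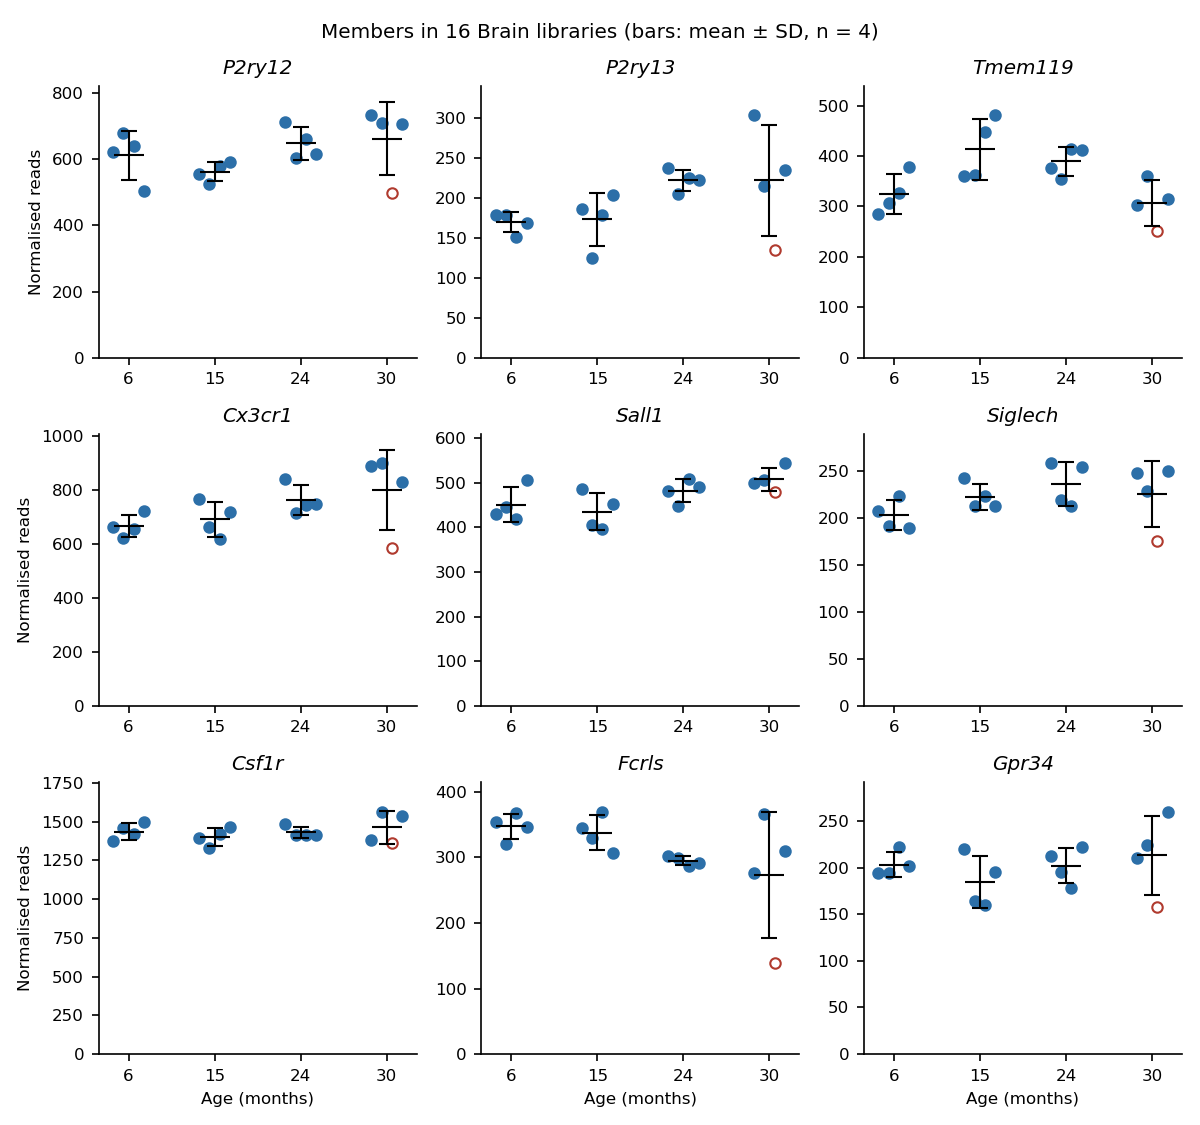
Normalised reads of each member (vertical axis, from 0) in the 16 Brain libraries against age in months, with a point per library and bars for mean ± SD of 4 libraries. The open red point is 30-month replicate 3, which is the lowest 30-month library in all 9 panels, and Csf1r lies between 1328 and 1566 at every age.

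Csf1r encodes the receptor for CSF1 and IL34, on which microglia depend for survival. Its normalised reads were 1374, 1458, 1419.7 and 1496 at 6 months, 1395, 1328, 1423 and 1465 at 15 months, 1486, 1415, 1415 and 1417 at 24 months, and 1382, 1566, 1365 and 1539.9 at 30 months. The 4 ages overlapped throughout, and the coefficient of variation within an age was 2.44% to 7.14%. At 30 months the log2 fold change was 0.02 ± 0.05 (SE, 95% interval -0.08 to 0.13, limma adjusted p = 0.84), and 0.06 (interval -0.05 to 0.17) without replicate 3. The interval leaves room for changes of at most 0.17 in size on the log2 scale with or without that library.

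Cx3cr1 encodes the receptor for fractalkine, a ligand displayed by neurons. The values were 664, 622, 656 and 721 at 6 months, 766, 661, 619.7 and 718 at 15 months, 842, 714, 744 and 748 at 24 months, and 889, 899, 583 and 828 at 30 months. At 30 months 3 of 4 libraries lay above every library of 6 months, and replicate 3 lay below all of them. The log2 fold change was 0.25 ± 0.11 (limma adjusted p = 0.178), and without replicate 3 it was 0.39 ± 0.08 (limma adjusted p = 0.00493). For Brain Cx3cr1 at 30 against 6 months limma-voom with quality weights on all libraries gave 0.33 (adjusted p = 0.0377). Such weights can count an outlying library less, so this call is not independent of how replicate 3 is treated.

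P2ry12, which steers microglial processes toward ADP released at an injury, had 621, 680, 641 and 505 normalised reads at 6 months and 556, 524, 580 and 593 at 15 months. At 24 months the values were 712, 605, 663 and 615, and at 30 months 734, 711, 497 and 707. The groups of 6 and 30 months overlapped in both directions. P2ry12 differed by 0.11 ± 0.11 on the log2 scale (interval -0.12 to 0.33, limma adjusted p = 0.62), and 0.24 (0.06 to 0.42, adjusted p = 0.124) without replicate 3.

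P2ry13 had 179, 179, 151 and 169 normalised reads at 6 months and 185, 125, 178 and 203 at 15 months. At 24 months it had 237, 204, 224 and 222, above every 6-month library, and at 30 months 303, 214, 135 and 235. The log2 fold change was 0.39 ± 0.18 at 24 months (limma adjusted p = 0.443), where 4.14% of genes had all 4 libraries above the 4 of 6 months. At 30 months it was 0.33 ± 0.18 (interval -0.04 to 0.70, limma adjusted p = 0.297), and 0.55 ± 0.14 (0.25 to 0.85, adjusted p = 0.0301) without replicate 3. P2ry13 and P2ry12 lie opposite Med12l, whose exons overlap those of P2ry12 in GENCODE M21. No source used here states how the counting treated strand, so part of the P2ry12 reads could belong to Med12l. Med12l differed by 0.13 ± 0.06 (limma adjusted p = 0.22). Exons of Csf1r overlap those of Hmgxb3 on the opposite strand, so the same limit holds for Csf1r and for the ratios to Csf1r below. Hmgxb3 differed by -0.01 ± 0.08 (limma adjusted p = 0.977). Exons of Cx3cr1 overlap those of Gm33858, which had a mean of 5.81 reads in Brain.

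Gpr34, a receptor for lysophosphatidylserine, had 194, 195, 222 and 202 normalised reads at 6 months and 219.7, 164, 159.9 and 196 at 15 months. It had 213, 196, 179 and 222 at 24 months and 211, 224, 158 and 260.3 at 30 months. The ages overlapped, and the log2 fold change at 30 months was 0.05 ± 0.13 (interval -0.23 to 0.32, limma adjusted p = 0.882). Without replicate 3 it was 0.18 (-0.06 to 0.43, adjusted p = 0.447).

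Siglech encodes a sialic-acid-binding lectin that signals through the adaptor TYROBP and is also known from plasmacytoid dendritic cells. It had 207, 192, 224 and 189.8 normalised reads at 6 months, 243, 213, 223 and 213 at 15 months, 258, 219.6, 213 and 255 at 24 months, and 248.7, 229, 175 and 250.1 at 30 months. All 3 later groups overlapped with 6 months. The log2 fold change at 30 months was 0.14 ± 0.11 (interval -0.09 to 0.37, limma adjusted p = 0.5), and 0.26 (0.05 to 0.46, adjusted p = 0.146) without replicate 3. Of the 9 plasmacytoid dendritic cell markers 5 were tested in Brain. Irf7 and Bst2, which interferon also induces, rose and Pacsin1, which neurons also express, fell. Of all genes 3.32% rose and 4.18% fell.

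Fcrls encodes a scavenger receptor related to Fc receptors. It had 355, 320.2, 367 and 347 normalised reads at 6 months and 344, 329, 369.8 and 307 at 15 months. At 24 months the values were 302, 298, 287 and 291, below every 6-month library, where 3.04% of genes had all 4 libraries below the 4 of 6 months. At 30 months the values were 276, 365, 139 and 310.3, the widest spread of any member, with a coefficient of variation of 35.3%. The log2 fold change was -0.23 ± 0.18 at 24 months (limma adjusted p = 0.725) and -0.43 ± 0.18 at 30 months (interval -0.81 to -0.05, limma adjusted p = 0.169). Without 30-month replicate 3 it was -0.14 ± 0.09 (adjusted p = 0.467), and without 30-month replicate 2, the highest of its age, the change of Brain Fcrls at 30 against 6 months was -0.60 (limma adjusted p = 0.0466).

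Tmem119, a membrane protein used to tell microglia from other macrophages, had 285, 307, 327 and 378 normalised reads at 6 months and 361, 362, 448 and 481 at 15 months. It had 377, 354, 413 and 413 at 24 months and 302, 361, 251 and 315 at 30 months. The highest library of 6 months lay within the range of 15 months, and 30 months overlapped with 6 months, with replicate 3 below all 6-month libraries and the other 3 among them. Tmem119 differed by 0.34 ± 0.11 on the log2 scale at 15 months (unadjusted p = 0.00714, limma adjusted p = 0.435), 0.27 ± 0.11 at 24 months (adjusted p = 0.401) and -0.08 ± 0.11 at 30 months (adjusted p = 0.739). Between 24 and 30 months it was -0.35 ± 0.11 (limma adjusted p = 0.255), in a comparison where 0 of 9 members and 0.346% of genes passed. Without replicate 3 the value at 30 against 6 months was 0.01 (interval -0.22 to 0.25).

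Sall1 encodes a zinc finger transcription factor that holds microglia in their resting identity. It had 431, 447, 418 and 507 normalised reads at 6 months, 487, 407, 396 and 452 at 15 months, 482, 448, 509 and 489.9 at 24 months, and 500.4, 506, 479.8 and 544 at 30 months. The groups overlapped through the highest 6-month library. On the log2 scale Sall1 differed by 0.17 ± 0.08 (interval 0.01 to 0.33, limma adjusted p = 0.192), and 0.20 ± 0.08 (adjusted p = 0.193) without replicate 3, which was the eighth lowest of the 16 libraries for Sall1.

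**Figure D2:**
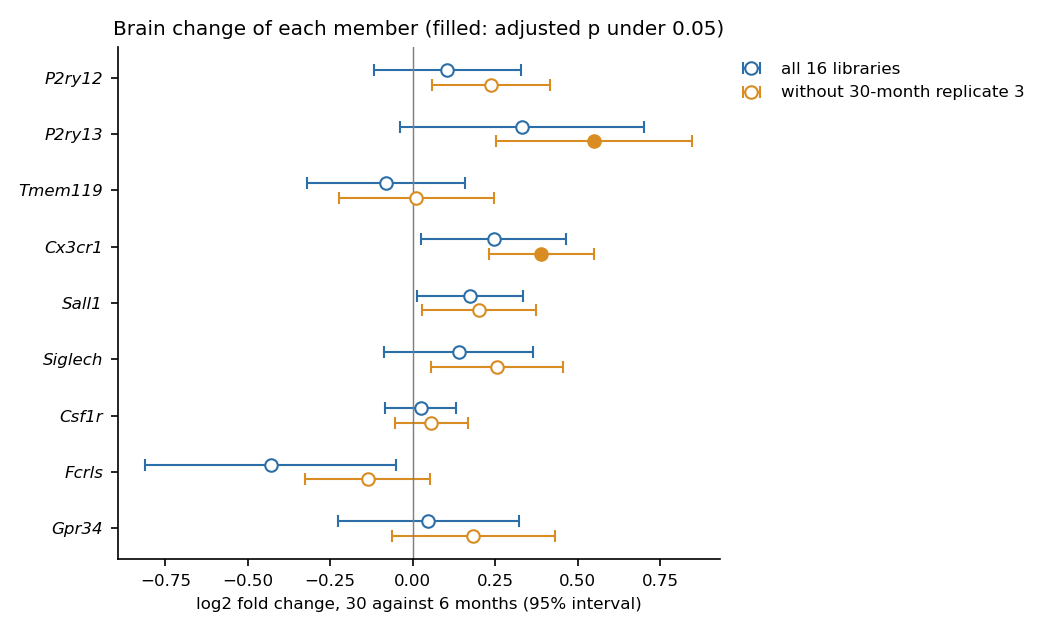
Brain log2 fold change of each member at 30 against 6 months (horizontal axis) with its 95% interval, from all 16 libraries in blue and without 30-month replicate 3 in orange. Filled points passed an adjusted p of 0.05 in limma, which holds for P2ry13 and Cx3cr1 without that library and for no member with it. That library was the lowest of its age for every member, so leaving it out raised every value.

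The other members were set against Csf1r within each library, as a difference of log2(normalised reads + 1). Such a ratio does not depend on the size factor and shows unequal change only. At 15 months the ratio of Tmem119 to Csf1r was -1.77 ± 0.16 (SD, n = 4) against -2.15 ± 0.13 at 6 months, and the 4 and 4 libraries did not overlap, as for 3.11% of genes in that direction (0.642% lay lower). At 24 months the ratios of P2ry13 (-2.69 ± 0.07 against -3.08 ± 0.13) and Cx3cr1 (-0.91 ± 0.07 against -1.11 ± 0.08) were above all of 6 months, as for 3.74% of genes. The ratio of Fcrls, -2.28 ± 0.03 against -2.05 ± 0.12, was below all of them, as for 1.96% of genes. At 30 months the ratios of all 8 members overlapped with those of 6 months, where 5.37% of genes lay below and 3.54% above. Without replicate 3 the ratios of P2ry13 (-2.86 to -2.18, against at most -2.93 at 6 months) and Cx3cr1 (-0.89 to -0.64, against at most -1.05) lay above all of 6 months, as for 4.09% of genes. The other 6 members still overlapped.

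The members varied together in part. Over the 16 Brain libraries the 36 pairs of members had Pearson r from -0.25 to 0.80 with a median of 0.43, as a description of libraries that share ages and composition. P2ry13 with Cx3cr1 had 0.80, P2ry12 with P2ry13 0.77 and Cx3cr1 with Siglech 0.73. Fcrls with Sall1 had the lowest, -0.25. Without 30-month replicate 3 the median over the 36 pairs was 0.37, with 24 above 0 against 32 with it. Among deviations from the mean of each age the median r was 0.54 with that library and 0.14 without it, and 35 and 25 of the 36 pairs were above 0. Cx3cr1 with Sall1 was the highest pair without it, at 0.80, and P2ry13 with Fcrls had -0.65 over 15 libraries.

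The genes whose profile was most like the mean of the 9 standardised members, by Pearson r over the 16 libraries among 12506 genes with a mean of 50 or more reads, were Tgfa (0.83), Podxl, Tmem108, Ntng2, Dync1i2, Kctd4, Car2, Arsb, Cxcl12 and Serpinb1a (0.79). Without 30-month replicate 3 their r was 0.60 to 0.81 and their ranks 11 to 453. The 10 highest without it were Cd9, Myo1f, Irak1, Gcnt1, Nup93, Rffl, Ly86, Zfp709, Slc29a3 and Kat2b, with r from 0.82 to 0.88. The 27 other microglia genes compared had a median r of 0.51, against -0.01 for all genes.

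Other genes of microglia rose in Brain with age. The lists were chosen with earlier results of these data known, so their counts are a description only. The difference between these lists and the members was not tested. Of 30 further microglia genes, 15 rose and 0 fell at 30 against 6 months, beside 3.32% of all genes rising, with a median log2 fold change of 0.30. Ctss, a lysosomal protease, rose from 984 to 1127 normalised reads at 6 months to 1604 to 2024 at 30 months, a log2 fold change of 0.79 ± 0.07 (limma adjusted p = 7.1e-07). Ptprc, the leukocyte phosphatase CD45, rose by 0.87 ± 0.13 (adjusted p = 0.000287), Trem2, a lipid-sensing receptor, by 0.65 ± 0.10 (adjusted p = 0.000353), and C1qb, a chain of complement C1q, by 0.47 ± 0.07 (adjusted p = 0.000444). Without replicate 3, 14 of the 30 rose. At 24 months 6 rose, and 3 without 24-month replicate 1, and at 15 months 0 rose, with 12 at an unadjusted p under 0.05. Of all genes 0.667% passed at 24 months and 0.0247% at 15 months, in either direction.

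Genes listed for activated microglia rose as well. They are not particular to microglia. At 6 months the list summed to 4222 to 4644 RPM in Brain, 3777 to 4042 in Muscle and 19580 to 20600 in Liver. Which cells of Brain carried the rise was not tested. Of 26 such genes 24 were tested, and 17 rose and 0 fell at 30 months, beside 3.32% of all genes rising. The median was 0.93, and 16 rose without replicate 3. This list too was chosen with earlier results of these data known. The smallest adjusted p belonged to Lyz2, lysozyme (1.76 ± 0.12, limma adjusted p = 2.2e-08), B2m, the light chain of MHC class I (0.96 ± 0.08, adjusted p = 3.61e-07), Gpnmb, a lysosomal glycoprotein (1.96 ± 0.18, adjusted p = 1.66e-06) and Clec7a, a beta-glucan receptor (4.36 ± 0.50, adjusted p = 2.97e-05). Clec7a had 0 to 7.68 normalised reads at 6 months, 7.18 to 23.3 at 15 months, 32.8 to 45.2 at 24 months and 58.7 to 113 at 30 months. In 30-month replicate 3, where the members were lowest, it had 58.7, the lowest of its age, and above every younger library. At 24 months 11 of the 24 rose, and at 15 months 1, where 0.667% and 0.0247% of all genes passed in either direction.

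**Figure D3:**
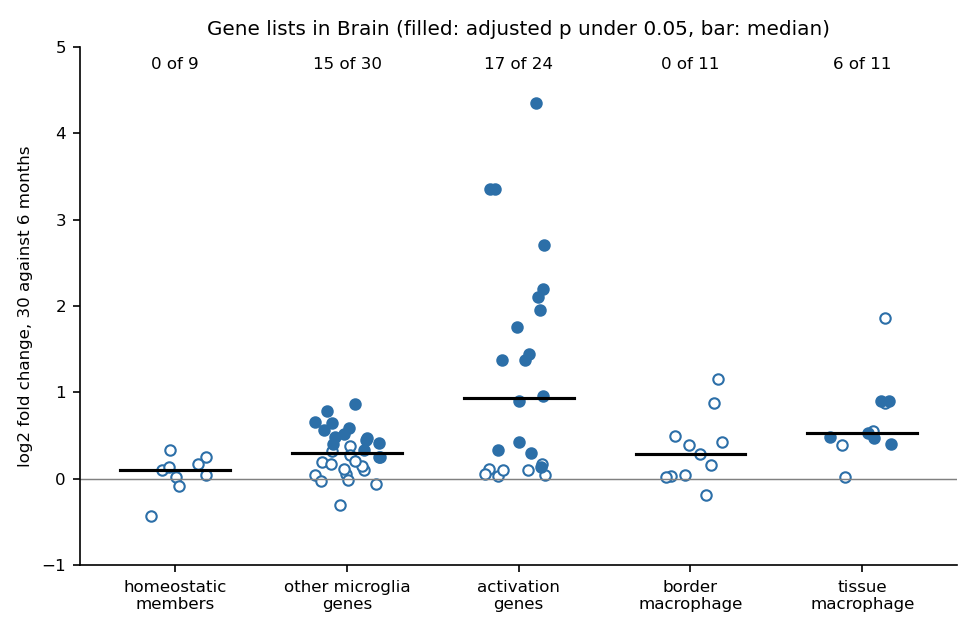
Log2 fold change at 30 against 6 months in Brain (vertical axis) for the tested genes of 5 lists, a point per gene, filled where the limma adjusted p was under 0.05, with the list median as a bar and the number called above. The 9 members had 0 called and a median of 0.11, the other microglia genes 15 of 30 and 0.30, and the activation genes 17 of 24 and 0.93. The lists were chosen with earlier results of these data known.

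The difference between the members and the other microglia genes can be read within a library, and was looked at after the values had been seen. The median of centred log2 values over the members minus that over the 30 other microglia genes was 0.09 to 0.21 in the 6-month libraries, -0.09 to 0.09 at 15 months, -0.08 to 0.01 at 24 months and -0.30 to 0.04 at 30 months. The lowest 6-month value, 0.0918, lay just above the highest of the other ages, 0.0912. The sum of the 9 members in RPM was 249.5 to 257 at 6 months and 278 to 293 at 30 months without replicate 3, which had 219.8. The sum of the 30 other microglia genes was 739 to 760 at 6 months and 867 to 1029 at 30 months, with replicate 3 at 867.

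Of the list of ligands of CX3CR1, CSF1R, TGF-beta receptors and TAM receptors, 8 were tested, and 2 rose and 1 fell. Of all genes 3.32% rose and 4.18% fell in this comparison of 30 with 6 months. Cx3cl1, fractalkine, had 8731 to 10791 normalised reads at 6 months and 6788 to 7920 at 30 months, and fell by 0.36 on the log2 scale (SE 0.06, limma adjusted p = 0.00109). Its groups did not overlap. Csf1 had 380.2 to 427 normalised reads at 6 months and 493 to 683 at 30 months, and rose by 0.46 ± 0.09 (adjusted p = 0.00285). Il34, the other CSF1R ligand, differed by -0.23 ± 0.08 (adjusted p = 0.0753). Tgfb1 differed by 0.40 ± 0.17 (adjusted p = 0.192), and Pros1, protein S, a ligand of TAM receptors, rose by 0.50 ± 0.09 (adjusted p = 0.00205).

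Of 18 tested genes of receptor signalling 5 rose and 0 fell, beside 3.32% of all genes rising and 4.18% falling. Plcg2, a phospholipase below TYROBP-coupled receptors, rose by 0.70 ± 0.15 (limma adjusted p = 0.00593), Tgfbr1 by 0.31 ± 0.08 (adjusted p = 0.0168), Tyrobp by 0.59 ± 0.15 (adjusted p = 0.0193) and Nt5e, which makes adenosine from AMP, by 0.43 ± 0.11 (adjusted p = 0.0234). Tgfbr2 differed by 0.31 ± 0.11 (adjusted p = 0.0934), and Kcnk13, the potassium channel that works with P2RY12 in microglial surveillance, by -0.05 ± 0.14 (adjusted p = 0.877) and by 0.11 ± 0.11 (adjusted p = 0.656) without replicate 3. Without that library 3 of the 18 rose, and the adjusted p of Nt5e was 0.0663. Of 13 tested transcription factors 3 rose and 1 fell, beside the same shares of all genes. Among those that rose were Irf8 (0.55 ± 0.12, limma adjusted p = 0.00898) and Mef2a (0.19 ± 0.04, adjusted p = 0.0116). Egr1, which neurons also induce with activity, fell by 0.69 on the log2 scale (SE 0.14, adjusted p = 0.00591). Spi1 differed by 0.27 ± 0.15 (adjusted p = 0.324). Without replicate 3, 2 of the 13 rose and 1 fell.

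Markers of other cells were counted beside these values, at 30 against 6 months, where 7.5% of all genes passed (3.32% higher and 4.18% lower). Of 11 tested genes of border macrophages, which line the meninges and vessels, 0 passed in limma and 4 had an unadjusted p under 0.05, with a median of 0.29. Their summed level was 36.4 to 43.6 RPM at 6 months and 42.4 to 51.5 at 30 months. Of 5 tested neutrophil genes 1 passed, Csf3r, which rose (0.68 ± 0.12, limma adjusted p = 0.00194), and of 3 tested lymphocyte genes 1 passed, Igkc, an immunoglobulin light chain, which rose (1.95 ± 0.38, adjusted p = 0.00299). Csf3r did not follow the neutrophil list sum, which was highest in 30-month replicate 3. It had 111 normalised reads there, against 127 to 143 in the other 30-month libraries. Of 10 astrocyte genes 1 passed, Gfap, which rose by 1.31 ± 0.07 (limma adjusted p = 1.06e-10), and the list median was -0.01. Of 10 oligodendrocyte genes 1 passed, Mobp, which rose by 0.27 ± 0.06 (adjusted p = 0.00544), with a median of 0.03. Of 10 neuron genes 1 passed, Tubb3, which fell by 0.21 (adjusted p = 0.00364), with a median of -0.05. Of 8 genes of oligodendrocyte precursors 2 passed, Gpr17 and Neu4, which fell by 0.88 and 0.41 (limma adjusted p = 0.000116 and 0.0129), with a median of -0.04. At an unadjusted p under 0.05 there were 5 neuron, 4 neutrophil, 3 oligodendrocyte, 3 precursor and 2 astrocyte genes and 1 lymphocyte gene. These counts include the genes that passed. Of 3 tested monocyte genes 0 passed and 2 had an unadjusted p under 0.05. Of 10 endothelial and mural genes 0 passed, with 0 at an unadjusted p under 0.05, and of 9 choroid plexus genes 0 passed, with 2. The part of these cells in the member values was not tested.

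The members are not limited to Brain. Levels across tissues are given in RPM from recovered reads, since the tables were normalised separately, and no test was made between tables. RPM divides by all reads, mitochondrial ones included. Those took 5.72% to 7.0% of reads in Brain, 3.16% to 4.39% in Lung and 32.3% to 40.6% in Heart. A high share lowers the RPM of every other gene, which limits the comparison between tissues. P2ry12 had a median of 35.8 (28.7 to 42.05) in Brain and 9.59 (4.04 to 24.1) in Lung, and 0.33 to 2.89 in the other 6 tissues. Siglech had 12.7 (10.2 to 15.0) in Brain and 4.30 (0.66 to 7.68) in Lung. Gpr34 had 11.4 (9.15 to 14.9) in Brain and 3.24 (1.54 to 6.22) in Skin. For these 3 genes every Brain library was above every library of the other 7 tissues.

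P2ry13 had a median of 11.2 RPM in Brain and 8.03 in Lung, Cx3cr1 41.3 in Brain and 19.3 in Lung, and Fcrls 18.1 in Brain, 10.7 in Aorta and 10.1 in Skin, with overlapping ranges in each case. Tmem119, Sall1 and Csf1r were higher elsewhere. Tmem119 had 40.5 (22.4 to 53.4) in Lung against 20.8 (14.6 to 27.7) in Brain. Sall1, which is known for its part in kidney development, had 64.3 (51.8 to 129) in Kidney, 27.9 (22.7 to 31.1) in Brain and 25.0 (15.2 to 65.75) in Liver, and a median of at most 0.94 in the other 5 tissues. Csf1r had 172 (136 to 476) in Lung and 81.9 (76.3 to 90.3) in Brain, and its lowest median was 34.0 in Muscle.

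**Figure D4:**
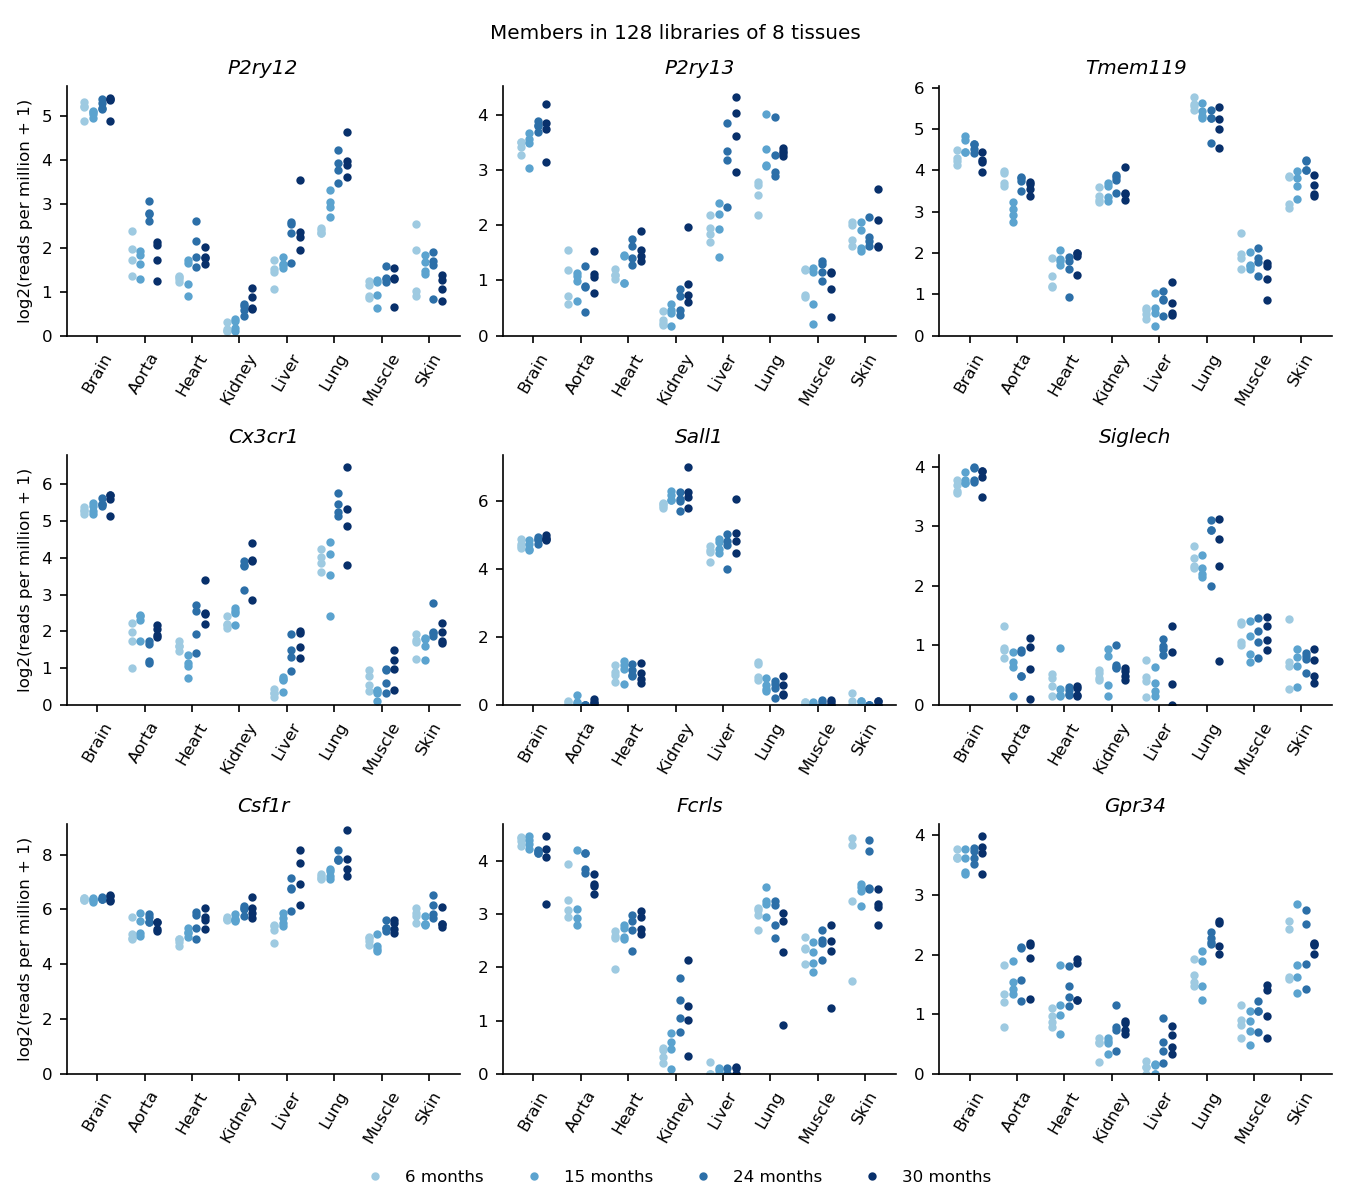
Log2(RPM + 1) of each member (vertical axis) in every library of 8 tissues, a point per library, with darker points for older ages. Brain lies above every other tissue for P2ry12, Siglech and Gpr34, and below Lung in median for Tmem119 and Csf1r.

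Outside Brain some members rose in some tissues. At 30 against 6 months 11 of the 55 member-tissue pairs tested in the other 7 tissues passed in limma within their own table, and all 11 were higher. Of the 44 that did not pass, 16 had a log2 fold change below 0. In Liver 4 of 7 tested members rose, where 13.8% of genes rose and 24.9% passed in either direction. In Lung 3 of 9 rose (10.7% of genes rose and 19.4% passed), in Kidney 2 of 7 (14.1% and 28.3%), in Heart 1 of 8 (4.11% and 5.15%) and in Muscle 1 of 8 (6.15% and 13.1%). The counts of 1 or 2 in Kidney, Heart and Muscle are too small to be told apart from these shares. In Aorta 0 of 8 passed in limma, with 1 at an unadjusted p under 0.05, where 3.08% of genes rose and 5.67% passed. In Skin 0 of 8 passed, with 0 at an unadjusted p under 0.05, where 0.167% of genes rose and 0.72% passed. The edgeR test called 15 pairs in the 7 tissues in all. The 7 pairs that did not pass with the smallest adjusted p in limma were Heart Cx3cr1 (1.22, adjusted p = 0.0536), Lung Csf1r (0.69, adjusted p = 0.0565), Kidney Fcrls (1.68, adjusted p = 0.061), Muscle Tmem119 (-0.89, adjusted p = 0.0615), Lung Tmem119 (-0.52, adjusted p = 0.0662), Lung Sall1 (-1.19, adjusted p = 0.072) and Lung Cx3cr1 (1.24, adjusted p = 0.0824).

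In Liver, Cx3cr1 had 5.39, 5.07, 3.21 and 7.95 normalised reads at 6 months and 37.5, 52.6, 49.0 and 29.6 at 30 months, a log2 fold change of 2.77 ± 0.36 (limma adjusted p = 0.000288). The 6-month values rest on only 3, 3, 2 and 4 recovered reads, so the size of this change is uncertain. The means at 15 and 24 months were 11.6 ± 3.64 and 35.1 ± 15.2 (SD, n = 4). Liver P2ry13 had 61.1, 54.0, 48.1 and 79.5 at 6 months and 214, 282, 305 and 141 at 30 months (1.90 ± 0.34, adjusted p = 0.00129). Liver Csf1r had 563, 780.2, 878 and 948 at 6 months and 2285, 3816, 4646 and 1473 at 30 months (1.84 ± 0.30, adjusted p = 0.000778), and Liver P2ry12 had 23.4, 38.8, 36.9 and 51.7 at 6 months and 78.6, 69.6, 175 and 59.7 at 30 months (1.24 ± 0.32, adjusted p = 0.0109). None of these groups overlapped. The 4 calls in Liver held without each library in turn, with adjusted p up to 0.0404.

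In Lung, P2ry12 had 64.9, 66.8, 72.7 and 75.1 normalised reads at 6 months and 226, 245, 190.04 and 406 at 30 months (1.86 ± 0.21, limma adjusted p = 0.000103), with means of 119 ± 25.7 and 225 ± 52.4 at 15 and 24 months. Lung Gpr34 had 34.7, 30.9, 29.8 and 46.6 at 6 months and 79.5, 49.6, 81.0 and 57.4 at 30 months (0.89 ± 0.24, adjusted p = 0.0167). Lung P2ry13 had 77.7, 57.8, 94.2 and 98.4 at 6 months and 139, 147, 161 and 154 at 30 months (0.89 ± 0.26, adjusted p = 0.0254). That last call was lost without 6-month replicate 1, 6-month replicate 2 or 30-month replicate 4, with adjusted p up to 0.0839. The groups of these 3 genes did not overlap.

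In Kidney, Cx3cr1 had 61.4, 59.0, 57.1 and 71.9 normalised reads at 6 months and 223, 221, 89.8 and 314 at 30 months (1.62 ± 0.28, limma adjusted p = 0.000556). Kidney P2ry13 had 2.88, 3.76, 2.54 and 6.07 at 6 months and 14.3, 10.3, 7.72 and 45.3 at 30 months (1.81 ± 0.50, adjusted p = 0.0129), a low level at which the log2(value + 1) scale understates the change. Csf1r had 426, 488, 511 and 465 in Heart at 6 months and 973, 806, 866 and 599 at 30 months (0.76 ± 0.17, adjusted p = 0.014). Its call was lost without 30-month replicate 1 or 3, with adjusted p up to 0.0632. In Muscle, Csf1r had 556, 501, 456 and 528 at 6 months and 654, 760.4, 584 and 833 at 30 months (0.46 ± 0.14, adjusted p = 0.0361), and its call was lost without any of the 4 libraries of 6 months or 30-month replicates 2 or 4, with adjusted p up to 0.104.

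Markers of tissue macrophages were counted in every tissue. Of the 15 genes of that list, 13 of 14 tested rose in Liver, 13 of 15 in Lung and 9 of 10 in Kidney. In Heart 9 of 12 rose and in Muscle 8 of 12, and 0 passed in Aorta (13 tested) and Skin (12 tested). Of all genes 13.8% rose in Liver, 10.7% in Lung, 14.1% in Kidney, 4.11% in Heart and 6.15% in Muscle. In Aorta 5.67% of all genes passed and in Skin 0.72%. In Brain, where 0 members passed, 6 of 11 tested rose, beside 3.32% of all genes. The summed level of the list in Brain was 155 to 168 RPM at 6 months and 219 to 274 at 30 months. Their summed level in Liver was 303 to 415 RPM at 6 months and 615 to 2051 at 30 months, and in Kidney 58.6 to 74.8 and 205 to 457. In Lung it was 735 to 979 and 1103 to 1700, in Heart 153 to 175 and 283 to 476, and in Muscle 124 to 142 and 186 to 287. Of the list, Clec4f was at 0 in all Muscle libraries of these ages and no gene was at 0 in the other tissues. Of the 10 lymphocyte genes 9 rose in Liver and 7 each in Kidney and Lung, where 13.8%, 14.1% and 10.7% of all genes rose. The part of these cells in the member values was not tested.

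**Figure D5:**
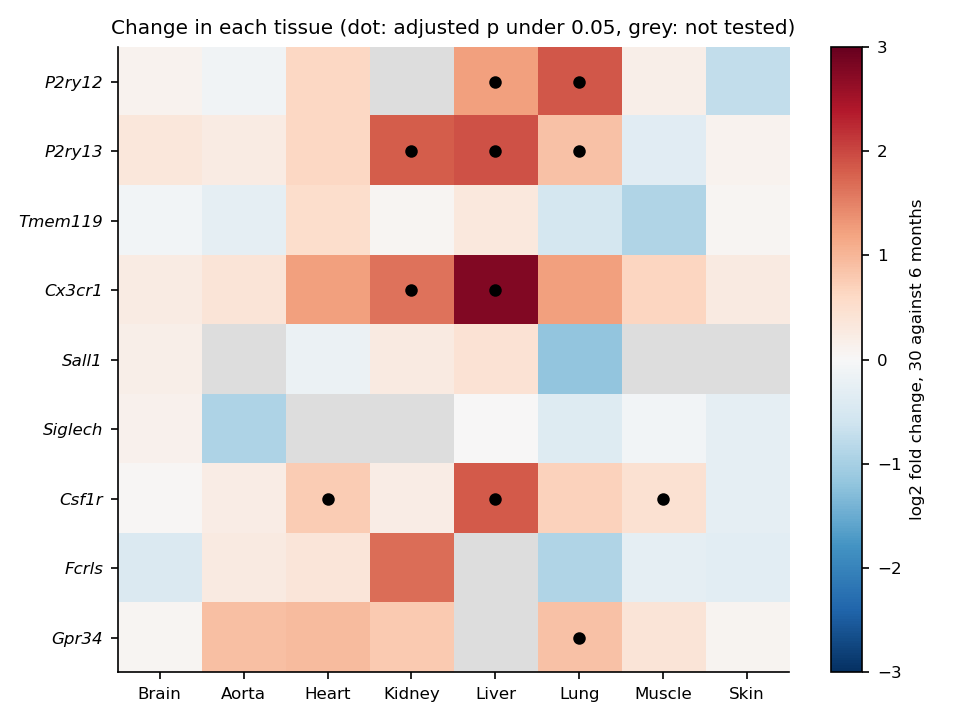
Log2 fold change of each member at 30 against 6 months in each tissue, on a colour scale from -3 to 3, with a dot where the limma adjusted p was under 0.05 and grey where a gene was not tested. The 11 dots lie in Heart, Kidney, Liver, Lung and Muscle, all on higher values, and the Brain column has none.

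The difference between Brain and the other tissues was tested directly, as the change in Brain from 6 to 30 months minus the mean change in the 7 others, in limma-trend over the libraries of all 8 tissues. None of the 9 members passed, where 0.708% of 21469 genes did, and 2 had an unadjusted p under 0.05. For Csf1r the change was 0.02 in Brain and 0.56 on average elsewhere, a difference of -0.54 ± 0.22 (limma adjusted p = 0.341). For Cx3cr1 it was 0.25 and 1.17, a difference of -0.92 ± 0.41 (adjusted p = 0.422). With a weight per tissue estimated from the libraries, 2.9% of genes passed and the members had adjusted p from 0.0888, for Csf1r, upward. The members were thus not shown to change differently in Brain than elsewhere.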

How the data were processed

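Tissue RNA was isolated with RNAiso Plus and sequenced from Illumina Stranded mRNA Prep libraries, per the labels' protocols. The submitters' processing notes list FastQC, STAR, RSEM, DESeq2 and GRCm39, with no versions. For the annotation and for strand use in counting, no source used here gives an answer. The authors deposited, for each tissue, a table of normalised signal by gene symbol and library, scaled within that table. Dividing by 1 factor per library gave whole reads for 100% of values (tolerance 0.01 reads), from 7647585 to 82801330 reads per library. Within a tissue and age, no libraries were copies of each other. Pairs across ages or tissues were not checked for copies.

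For each tissue, limma-trend (limma 3.58.1 in R 4.3.3) took log2(value + 1) of 16 libraries with a mean for every age, after edgeR 4.0.16's filterByExpr (count minimum 10). P-values, on both sides, had Benjamini-Hochberg adjustment over a table's tested genes, and "rose" and "fell" mean an adjusted p under 0.05. The scale understates changes of low genes. The Brain tests of 15, 24 and 30 against 6 months were tested on simulated data. Of genes changed 1.5-fold, 71.6%, 71.6% and 74.6% were called, and smaller changes were not simulated. False calls made up 5.41%, 7.85% and 4.84% of all calls. Alternatives were edgeR (TMM, RLE), DESeq2 1.42.0 and limma-voom on the recovered reads, no filter, only the ages compared, a replicate block, other pseudocounts and leaving out libraries. Chosen after seeing the data were tissue weights, leaving out libraries outside Brain, and leaving out 30-month replicate 3 for lists, ratios and other ages. For members at 30 months each library was left out in turn. Replicate 3 was singled out there after its low member values were seen.

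The members and lists were chosen with earlier results of these data known. Named genes are the members, their direct partners, up to 4 called genes per list by smallest adjusted p, and the 10 most similar profiles (Gm and Rik symbols left out). Some genes this rule names are not reported here. S100a9, Med12l and the profiles without replicate 3 were named after their values were seen. RefSeq windows and GENCODE M21 lengths are on GRCm38, and no coordinates were joined to the tables.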

Additional observations from a re-analysis of the deposited data

Results flagged for a closer look

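A library far from the other 3 of its group was looked for in 58 groups of 4 (Dixon's test, 95% level), a rule that chance meets in about 1 of 20 groups, and 3 met it. Brain P2ry12 at 30 months had 497 normalised reads in replicate 3, against 707 to 734 in the others. Brain Csf1r at 24 months had 1486 in replicate 1, against 1415 to 1417. Liver P2ry12 at 30 months had 175 in replicate 3, against 59.7 to 78.6, and the call of Liver P2ry12 held without it.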

How the results depend on the processing

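The number of Brain members called was 0 in either direction at 15 and 24 months under every alternative run. At 30 months it was 1 higher with limma-voom (Cx3cr1), 0 to 2 higher when a library was left out (2 without replicate 3, Cx3cr1 and P2ry13), and 0 to 1 lower (Fcrls, without replicate 2). Genes called at 15 months were 4, and 2 with edgeR by TMM or RLE and in the 2 ages alone, 36 with DESeq2, 1 without a filter, and 1 to 12 with a library left out, 12 without 30-month replicate 3. At 24 months they were 108, 188 with DESeq2 and 56 to 152 with a library left out. At 30 months they were 1215, and 727 in the 2 ages alone. The other microglia genes called at 24 months were 6, and 3 to 9 with a library left out. Genes whose Brain change differed from other tissues were 152, and 246 with limma-voom, 622 with tissue weights and 270 without the library of lowest rank correlation in each tissue. The cause was not tested.

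Same-numbered Brain libraries of different ages did not pair: the correlation of their deviations over 24 pairs ran from -0.12 to 0.15. With the replicate number as a block, genes called at 15 months were 11, and 148 and 1416 at 24 and 30 months; no member was called.

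Changes of uncalled members near 0 reversed. Csf1r at 24 months was 0.0016 with DESeq2, 0.0020 with limma-voom and -0.025 to 0.016 with a library left out. P2ry13 at 15 months was -0.048 with limma-voom and -0.076 to 0.16 with a library left out. Gpr34 at 24 months was 0.0028 with limma-voom and -0.057 to 0.047 with a library left out. With a library left out, Csf1r at 30 months was -0.0097 to 0.056, Gpr34 at 30 months -0.056 to 0.18, Tmem119 at 30 months -0.16 to 0.011, Fcrls at 15 months -0.086 to 0.0030, Sall1 at 15 months -0.11 to 0.0070 and the Tmem119 difference between Brain and other tissues -0.058 to 0.12. Outside Brain, Liver Siglech was -0.68 with a pseudocount of 0.1, Lung Siglech 0.051 and Skin Gpr34 -0.045 with edgeR, and without the library of lowest rank correlation Aorta P2ry12 was 0.10 and Muscle Fcrls, P2ry13 and Siglech 0.18, 0.13 and 0.093. Member calls in the other tissues were 11, and 15 with edgeR.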
